A study of Caenorhabditis elegans with 14 samples.

Results

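Counts per gene of small RNAs between 21 and 26 nt long were compared between the 2 libraries of hrde-1;HC125 and the 4 libraries of HC125. These are 6 of the 14 libraries in the series, taken by their strain labels. All 6 came from young adult C. elegans synchronized by timed egg laying. HC125 is listed in the series as the Psid-1::gfp strain, with gfp placed behind the sid-1 promoter, and was grouped with the array strains because other lines of the series are labelled non-array. hrde-1;HC125 (strain HC995) carries the same transgene together with a mutation of hrde-1. Both groups therefore hold the array, and the labelled difference is hrde-1. The sources used here do not give the allele, the make-up and copy number of the array, the number of independent lines or the tissue. All 6 libraries are described as 5'-independent, which means that the RNA was treated with a polyphosphatase so that RNAs with a triphosphate at the 5' end could be ligated.

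In worms, Argonaute proteins bind small RNAs and use them to find matching transcripts. RNA-dependent RNA polymerases copy target transcripts into short antisense RNAs, called 22G-RNAs, which start with guanosine and carry a 5' triphosphate. HRDE-1 is the Argonaute that takes part of this pool into germline nuclei, where it directs NRDE factors and methylation of histone H3 lysine 9 to the target gene, and it is needed to keep some silenced states over generations. The comparison asks which of these gene-matching small RNAs are present at other levels when hrde-1 is mutated. A count here is a number of small RNAs assigned to a gene and measures neither its messenger RNA nor its protein. Fewer germ cells and fewer small RNAs per germ cell cannot be told apart in such libraries.

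HC125 libraries held 451389, 1095472, 1811918 and 3741687 reads assigned to genes, and hrde-1;HC125 libraries 6379388 and 3881568, so both mutant libraries were deeper than every control library. A count of 3 came to between 0.503 and 6.45 CPM, which is counts per 1e+06 counts of a library, in these libraries. On the log CPM scale replicates correlated at 0.905 to 0.976 in HC125 and at 0.981 in hrde-1;HC125, and libraries of different groups at 0.83 to 0.904. With the mutant libraries, HC125 replicates 3 and 4 correlated at 0.893 to 0.904 and replicates 1 and 2 at 0.83 to 0.874. Of 20541 genes in the table, 10470 had enough counts to be tested.

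The mutated gene itself had fewer small RNAs in the mutant. hrde-1 (WBGene00007624, WBcel235 III:4172337-4176159) came to 841, 839, 1273 and 1096 CPM in HC125 and to 471 and 540.3 CPM in hrde-1;HC125. The groups did not overlap, and the log2 fold change was -1.01 ± 0.17 (SE, edgeR adjusted p = 0.000254). These counts hold no positions within the gene and do not check the mutation. sid-1, whose promoter is on the array and which encodes a channel for double-stranded RNA (WBGene00004795, V:5119970-5126916), came to 2542, 2398, 2031 and 2279 CPM in HC125 and to 557 and 506 CPM in the mutant. Every mutant library lay below every HC125 library, with a log2 fold change of -2.12 ± 0.14 (edgeR adjusted p = 5.64e-09).

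Relative to the rest of the pool, most genes were not called as changed in hrde-1;HC125. A minority gained or lost small RNAs, some by more than 32-fold. By edgeR's quasi-likelihood test at a Benjamini-Hochberg adjusted p under 0.05, 1775 of the 10470 tested genes (17.0%) were called. Of these, 812 were higher in hrde-1;HC125 (7.76% of those tested) and 963 were lower (9.2%). The fitted change was within 2-fold for 81.3% of tested genes, and its median over all of them was -0.03 on the log2 scale. The scaling assumes that most genes do not change, which places this median near no change. Counts are relative within a library, so a general gain or loss of small RNAs could not be seen. Genes that were not called were not shown to be unchanged. The groups' libraries did not overlap in 808 of the genes called higher and 944 of those called lower. Regardless of the test, the libraries of the groups did not overlap in 3770 genes (36.0%), with 1981 higher (18.9%) and 1789 lower (17.1%).

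**Figure D1:**
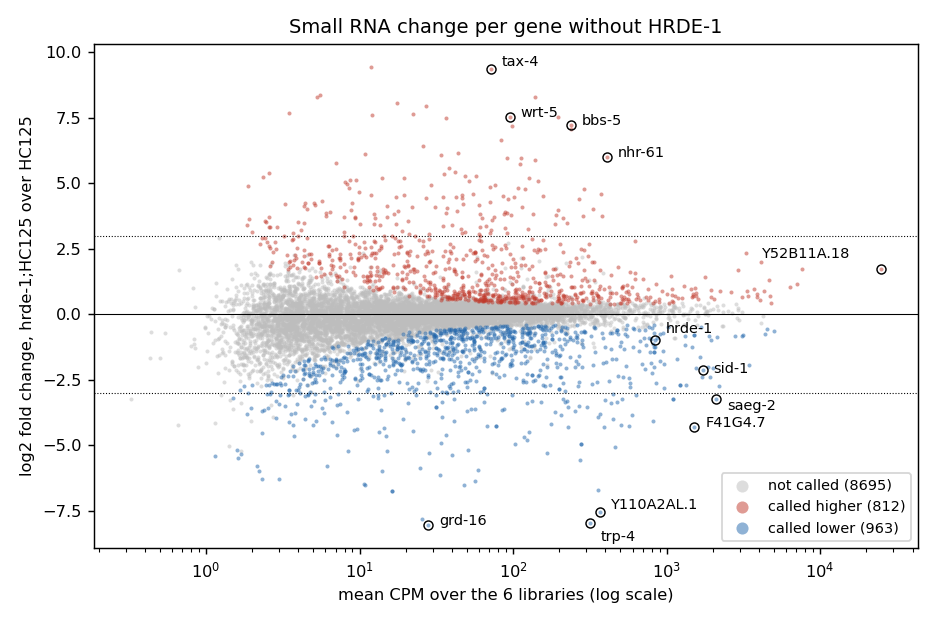
Each point is 1 of the 10470 tested genes, with its mean CPM over the 6 libraries on a log axis and its log2 fold change, hrde-1;HC125 over HC125. Red marks the 812 genes called higher, blue the 963 called lower, and the dotted lines mark 8-fold changes. Called genes lie on both sides at every level above a few CPM, and Y52B11A.18 stands alone at the right edge.

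The split between gains and losses moved with the scaling. Under TMM scaling 45.7% of the called genes were higher, and with library size alone 35.1% were, since that scaling moved the median log2 fold change over all tested genes from -0.033 to -0.152. The number of calls fell to 1106 without hrde-1;HC125 replicate 1 and to 1065 without replicate 2. Of these, 1094 and 1053 were among the 1775, in the same direction. With all libraries thinned to 451389 reads, 1021 genes were called, of which 957 were shared.

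The called genes held a large part of the pool. The 963 genes called lower took 21.4% to 23.2% of all counts in HC125 and 7.48% to 8.09% in hrde-1;HC125. The 812 genes called higher took 15.5% to 16.6% in HC125 and 33.0% to 33.9% in the mutant. The genes were chosen by this contrast, so both shares are a description only. Counts were also more concentrated in the mutant: the 10 genes with most counts in a library took 5.38% to 6.64% of it in HC125 and 11.6% to 11.7% in hrde-1;HC125. The mean shares were 5.93% ± 0.54 (SD, n = 4) and 11.6% ± 0.08 (n = 2), and the groups did not overlap (exact permutation test, two-sided p = 0.133, the smallest that 4 against 2 libraries allow). The pseudogene Y52B11A.18, described below, alone rose by 2.98 percentage points on average, against 5.71 for the 10 genes.

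Losses outnumbered gains between 2- and 8-fold, and changes over 8-fold went both ways in like numbers. Under 2-fold, 309 called genes were higher and 256 lower. Between 2- and 4-fold there were 214 higher and 358 lower, and between 4- and 8-fold 140 and 200. Between 8- and 32-fold there were 107 higher and 117 lower, and over 32-fold 42 and 32. Over 8-fold this makes 149 genes each way (1.42% of those tested in each direction). The edgeR test of a change beyond 2-fold passed 651 genes (6.22%), of which 288 were higher (2.75%) and 363 lower (3.47%).

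**Figure D2:**
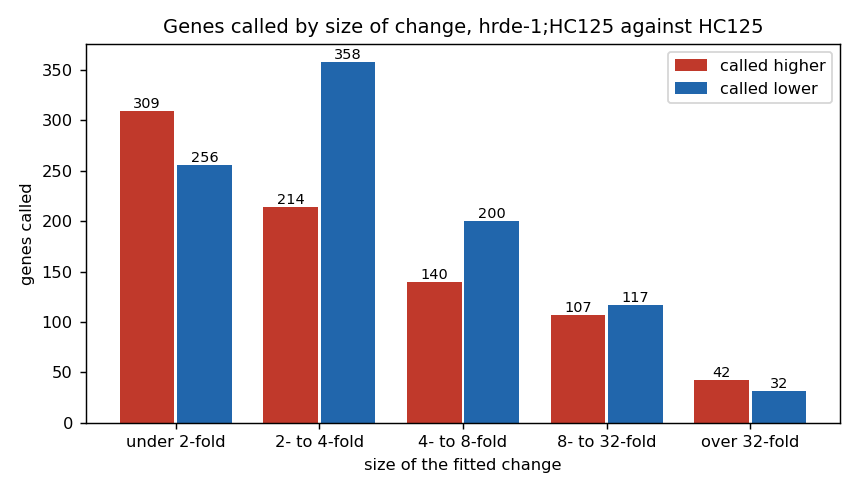
Bars give the number of genes called higher (red) and lower (blue) in hrde-1;HC125 against HC125, by the size of the fitted fold change. Losses outnumber gains between 2- and 8-fold, and gains outnumber losses under 2-fold and over 32-fold.

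The genes with the largest gains started from few small RNAs. The 42 genes over 32-fold higher had a median of 1.41 CPM in HC125 and 109 CPM in the mutant. The 32 genes over 32-fold lower went from a median of 30.5 to 0.235 CPM. Among genes with less than 1 CPM on average in HC125, 48 of the 65 tested were called higher. Such genes could pass the filter on low counts through other libraries only, so that count is not a share of all silent loci.

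Some loci were all but empty in 1 group. In 20 of the genes called higher, at most 3 counts were found among the 7100466 counts of the HC125 libraries together, and in 4 of them none. In 38 of the genes called lower, at most 3 were found among the 10260956 counts of the mutant libraries, and in 8 of them none. ZC84.7 had 0 counts in HC125 and 352 in hrde-1;HC125, at least 87.9-fold higher when HC125 is set at 3 counts over the group. cank-26 had 0 and 151, at least 37.7-fold higher, and T11F9.21 had 0 and 166, at least 41.5-fold higher. In the other direction str-125, a chemoreceptor gene, had 32 counts in HC125 and 0 in the mutant, at least 14.2-fold lower. These bounds cover counting error only. On chromosome III ZC84.7 lies between tax-4, described below, and cls-3 in the order of tested genes, and all were called higher. ZC84.7 also overlaps cls-3 on the opposite strand.

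The largest losses in CPM, a measure that is not per length, were at F15D4.5, saeg-2, rnh-1.3, qdpr-1, F41G4.7 and zip-2. saeg-2 (III:9240363-9242514), named as a suppressor of an activated cGMP-dependent kinase, came to 2946, 2979.7, 3005 and 3020.2 CPM in HC125 and to 346 and 286 in hrde-1;HC125. The HC125 libraries lay close together and far above both mutant libraries (log2 fold change -3.24 ± 0.17, edgeR adjusted p = 1.46e-10). F41G4.7 (X:16834896-16836404) came to 2512, 1954, 2394 and 2024 CPM in HC125 and to 114 and 111 in the mutant, a log2 fold change of -4.31 ± 0.18. It thus fell furthest in proportion among these 6 genes.

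The other losses of this group were smaller in proportion. F15D4.5 (II:13245376-13247774) went from 4563 ± 620.3 CPM (SD, n = 4) to 1173 ± 12.6 (n = 2). rnh-1.3 (I:9710088-9710745), which belongs to the ribonuclease H family, went from 3042 ± 346 to 455 ± 18.8 CPM. qdpr-1 (III:13393910-13394979), a quinoid dihydropteridine reductase, went from 2630.3 ± 236 to 495 ± 47.7 CPM. In these 3 genes too no mutant library reached any HC125 library, with log2 fold changes of -1.96, -2.74 and -2.41. zip-2 (III:832982-835814), a bZIP transcription factor of the pathogen response, came to 4879.5, 3968, 6054 and 5399 CPM in HC125 and to 3253 and 2804 in the mutant. Its log2 fold change of -0.75 ± 0.19 (edgeR adjusted p = 0.00895) was the smallest of the 6, and without hrde-1;HC125 replicate 2 it was not called (adjusted p = 0.11).

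The largest gain in CPM was at the pseudogene Y52B11A.18 (I:11059299-11061435), which took 0.814% to 2.25% of a library's counts in HC125 and 4.11% and 4.71% in the mutant. It came to 9830.0, 7573, 22662 and 16204 CPM in HC125 and to 43985 and 49293 in the mutant. The HC125 libraries differed among themselves by nearly 3-fold, yet all lay below both mutant libraries (log2 fold change 1.73 ± 0.37, edgeR adjusted p = 0.0105). The call ended without hrde-1;HC125 replicate 1 (adjusted p = 0.058) and without replicate 2 (adjusted p = 0.073).

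B0250.8 (V:20469894-20470485) came to 4927, 5289.5, 3443 and 3697 CPM in HC125 and to 14900.3 and 13602 in the mutant, a log2 fold change of 1.72 ± 0.16 (edgeR adjusted p = 4.6e-07). Y53F4B.5 (II:14982592-14984009) came to 1574, 1581, 1238 and 1179 CPM in HC125 and to 7289.8 and 6754 in the mutant, a log2 fold change of 2.34 ± 0.14. In both genes the mutant libraries stood well above every HC125 library. W04A8.9 (I:13852386-13854047) went from 2080.4 ± 205 to 8216 ± 532 CPM. W09C5.12 (I:13661522-13662332) went from 5050.1 ± 297 to 11262 ± 1309.9 CPM. The noncoding RNA gene C47G2.8 (II:11294770-11296020) went from 4679 ± 112 to 9657 ± 473 CPM. Their log2 fold changes were 1.98, 1.16 and 1.05, again with no overlap between the groups.

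**Figure D3:**
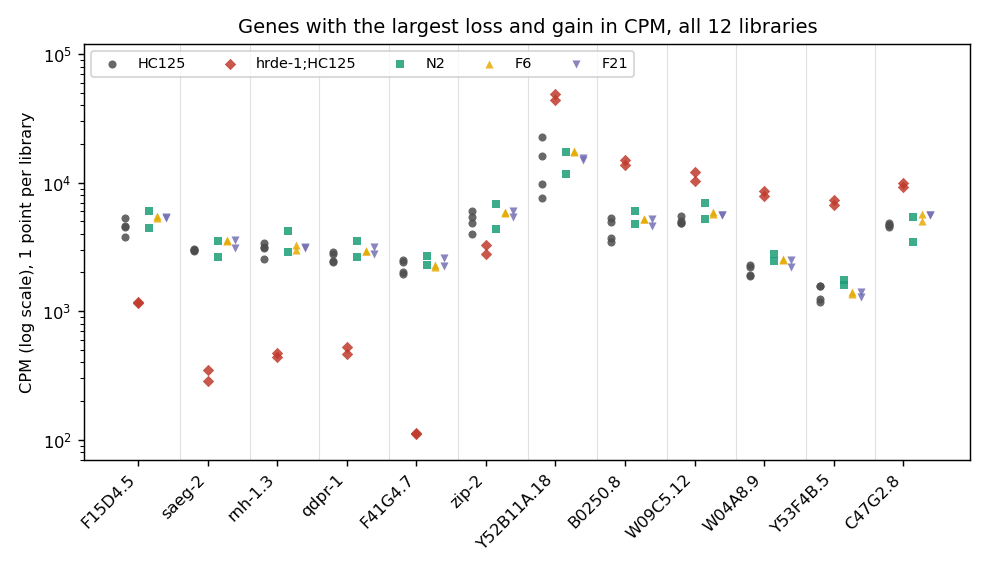
CPM on a log axis, with 1 point per library, for the 6 genes with the largest loss and the 6 with the largest gain in CPM. Red diamonds are the hrde-1;HC125 libraries, dark circles HC125, and the other symbols wild type N2 and the non-array lines at generations F6 and F21. For saeg-2 the mutant libraries lie at 346 and 286 CPM and the HC125 libraries between 2946 and 3020.2.

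The libraries outside this contrast bear on its direction for single genes. N2 (n = 2) had the wild type hrde-1 and no array, and the F6 and F21 lines (n = 2 each) are labelled non-array. At saeg-2 the means were 3089.7 CPM in N2, 3556.7 at F6 and 3359.6 at F21, near the 2988 CPM of HC125. At Y53F4B.5 they were 1663.7, 1387.0 and 1349.9 CPM, near the 1393 CPM of HC125. Among the 149 genes over 8-fold higher, all 3 of these groups lay nearer to HC125 than to the mutant in 135 genes and nearer to the mutant in 0. Among the 149 genes over 8-fold lower the counts were 125 and 2. Since the genes were chosen on HC125, that is a description and not a further test.

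Of the 32 called genes over 32-fold lower and the 42 over 32-fold higher, those with most counts are given here. Y110A2AL.1 (II:2875101-2876768) came to 551, 578, 517 and 572 CPM in HC125 and to 3.35 and 2.16 in hrde-1;HC125, a log2 fold change of -7.57 ± 0.25 (edgeR adjusted p = 9.02e-13). dlk-1 (I:12565800-12572801), a kinase needed for axon regeneration, came to 785, 508, 772 and 675 CPM in HC125 and to 26.3 and 13.5 in the mutant. Both genes lost nearly all of their small RNAs in both mutant libraries. nhr-61 (II:14816136-14818543), a nuclear hormone receptor gene, came to 15.1, 25.5, 24.98 and 11.6 CPM in HC125 and to 1267 and 1106 in the mutant. bbs-5 (III:10258831-10261782), a subunit of the BBSome that moves cargo in cilia, came to 0, 5.94, 6.66 and 3.95 CPM in HC125 and to 749.6 and 665 in the mutant. Their log2 fold changes were 5.99 ± 0.30 and 7.21 ± 0.23.

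Between 8- and 32-fold, the genes richest in counts that rose were R03D7.2 and W01A11.7. R03D7.2 (II:10932712-10935184) came to 101, 68.8, 72.2 and 64.4 CPM in HC125 and to 978 and 989 in the mutant, a log2 fold change of 3.74 ± 0.30. W01A11.7 (V:6504540-6505389) came to 47.3, 36.5, 39.4 and 50.2 CPM in HC125 and to 1040.2 and 1032 in the mutant. The mutant libraries were nearly equal to each other in both genes.

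By biotype, losses outnumbered gains among pseudogenes, by 57 to 22. The pseudogenes tested were 241 in number, and their median log2 fold change was -0.30. Of 10094 protein-coding genes 885 were lower and 772 higher, with a median of -0.03. The count of lowered pseudogenes was 37 without hrde-1;HC125 replicate 2, and that of raised ones was 12 and 14 without replicate 1 and replicate 2. All pseudogenes together took 6.17% to 7.51% of the counts in HC125 and 8.85% to 9.21% in the mutant. Without Y52B11A.18, whose gain is given above, they took 5.26% to 5.62% in HC125 and 4.50% to 4.74% in the mutant. Of 8 tested lincRNA genes 3 were lower and 1 higher, and of 7 genes annotated as ncRNA 1 was lower and 3 were higher. The 1 tested miRNA gene was not called by edgeR, with an unadjusted p under 0.05.

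K09E3.4 and F41G4.5, both pseudogenes of chromosome X, moved in opposite directions. K09E3.4 (X:17119294-17120907) came to 351, 353, 325 and 301 CPM in HC125 and to 16.3 and 16.7 in hrde-1;HC125, a log2 fold change of -4.33 ± 0.17 (edgeR adjusted p = 5.3e-12). F41G4.5 (X:16829493-16832740) came to 49.5, 36.5, 36.1 and 23.1 CPM in HC125 and to 535 and 503 in the mutant, a log2 fold change of 3.96 ± 0.21. F41G4.5 lies close to F41G4.7, which fell in the same libraries, and both are on the minus strand. Of the 119 tested IDs that the annotation does not hold, 17 were lower and 14 higher. WBGene00044400 went from 733 ± 55.6 to 39.2 ± 3.9 CPM, and WBGene00015370 from 7.76 ± 3.47 to 53.1 ± 5.3 CPM.

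On chromosome X losses outnumbered gains, while on the autosomes they were about equal. Of 990 tested genes of X, 174 were lower and 38 higher, with a median log2 fold change of -0.20. Of 9349 autosomal genes, 772 were lower and 760 higher, with a median of -0.02. X took 6.78% to 7.36% of the counts in HC125 and 4.88% to 4.99% in hrde-1;HC125. The means were 6.97% ± 0.26 (SD, n = 4) and 4.93% ± 0.08 (n = 2), with no overlap (exact permutation test, two-sided p = 0.133, the smallest possible). Without hrde-1;HC125 replicate 2 the genes of X called lower numbered 113, and without replicate 1 and replicate 2 those called higher numbered 18 and 20.

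The median level in HC125 was 9.32 CPM over X genes and 29.0 over autosomal genes, so the counts were also set side by side at like levels. At 10 to 100 CPM on average over the 6 libraries, 25.1% of X genes and 7.86% of autosomal genes were lower, and 6.34% and 7.48% were higher. At 100 CPM and above, 36.8% of X genes and 14.0% of autosomal genes were lower, and 7.55% and 15.1% were higher. From 1 to 10 CPM, 8.53% and 4.99% were lower. X had the larger share of losses at each of these levels.

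Calls were also counted by position along the chromosome, a division that was chosen after values of these data had been seen. Losses outnumbered gains in the outer parts and gains outnumbered losses in the centre of the autosomes. In the outer parts of the autosomes, the 25% of length at each end, 568 of 3972 tested genes were lower and 312 higher, with a median log2 fold change of -0.12. In the central part, 204 of 5377 were lower and 448 higher, with a median of 0.03. The central excess of gains moved with the scaling. With library size alone 298 central genes were lower and 347 higher, and 674 outer genes were lower and 253 higher. Without hrde-1;HC125 replicate 1 and replicate 2 the outer losses numbered 376 and 359, and the central losses 116 and 93. The outer gains then numbered 195 and 198, and the central gains 266 and 260. On X, 126 of 578 genes in the outer parts and 48 of 412 in the central part were lower.

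The ends differed among themselves. The first part of chromosome III had 78 genes lower and 14 higher of 357 tested, and the last part of chromosome V had 83 lower and 20 higher of 361. The last part of chromosome II had 39 lower and 54 higher of 433, and the last part of chromosome III had 27 lower and 38 higher of 414. The last part of chromosome IV was nearly even, with 24 lower and 25 higher of 330.

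Gene families that are large in C. elegans are known to sit mostly on chromosome arms, and among them the F-box genes, which encode adaptors of ubiquitin ligases, had the most losses. Of 175 tested F-box genes 53 were lower and 6 higher (30.3% and 3.43%, against 9.2% and 7.76% of all tested genes). Their median log2 fold change was -0.72. The count of lowered members was 31 and 32 without hrde-1;HC125 replicate 1 and replicate 2. fbxa-120 (X:17302719-17304036) came to 443, 548, 391.9 and 353 CPM in HC125 and to 41.1 and 33.2 in the mutant, a log2 fold change of -3.53 ± 0.20 (edgeR adjusted p = 4.62e-10). fbxa-61 (III:1239048-1242799) went from 190.4 ± 48.6 to 18.5 ± 1.36 CPM. In the other direction fbxa-139 (V:15593384-15594673) went from 57.7 ± 7.52 to 194 ± 14.96 CPM and fbxa-16 (X:119663-122279) from 20.2 ± 3.06 to 87.7 ± 1.43 CPM. Lowered members were found on every chromosome, with 19 of 65 on II, 14 of 32 on III and 12 of 41 on V.

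Chemoreceptor genes, which encode the seven-pass receptors of sensory neurons, were mostly too low to be tested. The 59 of 1282 that were tested had 15 lower and 7 higher (25.4% and 11.9%, against 9.2% and 7.76% of all tested genes). Members were taken by symbol, and none of the tested ones was an srxa gene. On chromosome V srxa-14 and srxa-15 were also called lower (log2 fold change -4.11 and -1.79) and are not in these counts. Of the 36 counted on chromosome V, 14 were lower and 1 higher. These 14 include both copies each of srd-71 and srd-73, which lie in a duplicated segment described below, where copies share reads and, for srd-71, N2 lay with the mutant. With genes of identical counts taken once, the lowered members numbered 13 in place of 15. Without hrde-1;HC125 replicate 1 the lowered members numbered 9. srh-171 (V:19965700-19972559) came to 51.6, 46.7, 75.5 and 65.5 CPM in HC125 and to 1.84 and 0.809 in hrde-1;HC125, a log2 fold change of -5.38 ± 0.31, which was -6.14 without hrde-1;HC125 replicate 1. srsx-25 (IV:13365169-13368435) came to 2.15, 9.34, 3.89 and 1.32 CPM in HC125 and to 155 and 120.2 in the mutant. Its log2 fold change of 5.26 ± 0.42 lay between 4.62 when HC125 replicate 4 was left out and 5.94 when HC125 replicate 2 was. One gene thus lost nearly all of its small RNAs and the other went from near none to over 100 CPM.

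Other families had calls in both directions, and their counts are read beside the 9.2% lower and 7.76% higher of all tested genes. Of 56 tested MATH and BTB domain genes, also adaptors of ubiquitin ligases, 13 were lower and 6 higher, and math-1 (II:2046053-2046656) went from 225 ± 34.5 to 42.4 ± 0.24 CPM. Of 76 nuclear hormone receptor genes 10 were lower and 8 higher (13.2% and 10.5%), shares near those of all tested genes. nhr-15 (V:312721-323650) went from 922 ± 69.7 to 245 ± 31.3 CPM and nhr-8 (IV:7710983-7714210), which is needed for resistance to xenobiotics, from 18.03 ± 5.84 to 78.5 ± 4.67 CPM. Of 43 C-type lectin genes 8 were lower and 4 higher, and clec-12 (I:12476653-12478594) went from 30.6 ± 0.55 to 4.47 ± 0.16 CPM. Of 60 collagen genes 5 were lower and 2 higher, and col-162 (V:13441961-13443419) went from 50.2 ± 10.9 to 1.51 ± 0.23 CPM. Of 15 tested cytochrome P450 genes 2 were lower and 1 higher.

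Against the 17.0% of all tested genes that were called, the share was 5.33% of ribosomal protein genes and 31.0% of histone genes. Of 75 tested ribosomal protein genes 3 were lower and 1 higher, and none of the 3 named by rule, rpl-7A, rpl-11.1 and rps-17, kept its call without hrde-1;HC125 replicate 2 (adjusted p = 0.44, 0.19 and 0.29). Of 31 major sperm protein genes none was called by edgeR, and 1 had an unadjusted p under 0.05. Of the 12 mitochondrial genes none was called, 1 had an unadjusted p under 0.05, and their share of the counts was 1.28% ± 0.41 in HC125 and 1.33% ± 0.04 in the mutant. Of 71 histone genes 11 were higher and 11 lower. The higher count was 0 and 1 without hrde-1;HC125 replicate 1 and replicate 2, 23 if HC125 replicate 3 was left out and 6 if HC125 replicate 4 was, and histone genes are near-identical copies between which reads may be split.

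Of the 43 cilium and intraflagellar transport genes, which build and serve the sensory cilium, 15 were tested. Of these, 7 were higher (46.7%, against 7.76% of all tested genes), 1 was lower and 7 were not called. Their median log2 fold change was 0.76. Members near 0 in HC125 could pass the filter on low counts through the mutant libraries, so these values do not stand for the whole family. bbs-5 is described above. osm-9 (IV:3551090-3557431), a TRPV channel of sensory cilia, came to 8.60, 12.7, 13.9 and 13.2 CPM in HC125 and to 320.4 and 243 in hrde-1;HC125, a log2 fold change of 4.45 ± 0.23 (edgeR adjusted p = 2.21e-10). ift-20, a subunit of the transport trains, came to 2.15, 0, 0 and 0.263 CPM in HC125 and to 98.8 and 61.7 in the mutant. bbs-4, another BBSome subunit, went from 34.3 to 200.4 CPM, and the motor gene osm-3 from 1061.0 to 1643.89 CPM. The remaining higher members were dyf-17 and ift-74, at 41.8 and 5.71 CPM in the mutant. ift-74 was not called without hrde-1;HC125 replicate 2 (adjusted p = 0.117) or by DESeq2 (adjusted p = 0.119). bbs-1 (I:14371138-14376086), also of the BBSome, went the other way from 6.47 ± 0.98 to 1.26 ± 0.12 CPM, and was not called without hrde-1;HC125 replicate 1 (adjusted p = 0.085).

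Sensory channels had large changes in both directions. tax-4 (III:9181546-9185888), a channel that cyclic nucleotides open in sensory neurons, had 2 counts in the HC125 libraries together and 2086 in the mutant, at 0, 1.70, 0 and 0 CPM against 221 and 207. The ratio was 782 with a 95% counting interval from 216.1 to 6458. DESeq2 did not call it (adjusted p = 0.2), while edgeR did (adjusted p = 2.22e-09). trp-4 (I:13899085-13914008), a TRPN mechanosensory channel, came to 479.6, 428, 521 and 479 CPM in HC125 and to 1.84 and 1.89 in the mutant, a log2 fold change of -7.96 ± 0.24. gcy-23 (IV:3282885-3289337), a guanylyl cyclase of a thermosensory neuron, went from 34.0 ± 10.5 to 4.73 ± 3.26 CPM, a log2 fold change of -2.63 that was -3.67 without hrde-1;HC125 replicate 1. In all, 7 of 20 listed sensory channels and receptors were tested. Of these, 3 were lower and 2 higher (42.9% and 28.6%, against 9.2% and 7.76% of all tested genes). Genes near 0 in HC125, such as tax-4, could pass the filter on low counts through the mutant libraries. These shares therefore do not stand for the whole list.

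The list of neuron genes held 17, of which 10 were tested. Among the 10 tested, 4 were higher and 2 lower, to be read beside the 7.76% higher and 9.2% lower of all tested genes. Here too, members near 0 in HC125 could pass the filter on low counts through the mutant libraries. The counts therefore do not stand for the whole list. egl-21 (IV:10478442-10481844), a carboxypeptidase that matures neuropeptides, came to 38.7, 23.8, 68.8 and 65.5 CPM in HC125 and to 614 and 545 in hrde-1;HC125, a log2 fold change of 3.46 ± 0.51 (edgeR adjusted p = 0.00179). rab-3 (II:5721767-5727853), a GTPase of synaptic vesicles, went from 7.39 ± 5.16 to 21.1 ± 4.47 CPM, and was not called without hrde-1;HC125 replicate 2 (adjusted p = 0.077). The other higher members were egl-3, a convertase that acts before egl-21, at 8.49 CPM in the mutant, and mec-7, a tubulin of touch neurons, at 80.9 CPM. Neither was called without hrde-1;HC125 replicate 2 (adjusted p = 0.096 and 0.507), and mec-7 was not called by DESeq2 or without HC125 replicate 1 or replicate 2 (adjusted p = 0.0879, 0.0706 and 0.0869). mec-7 was also not called after thinning (adjusted p = 0.834), with scaling by library size alone (0.114) or with the array libraries fitted alone (0.0712). unc-31 (IV:12773867-12788354), which is needed for release of dense core vesicles, went from 10.3 ± 5.52 to 1.13 ± 0.07 CPM. sbt-1 (V:20827715-20828881), a chaperone of the convertase, had 18 counts in HC125 and 0 in the mutant, at least 8.01-fold lower.

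Of 20 tested neuropeptide and insulin-like genes 2 were higher and 4 lower. nlp-12 (I:1843384-1843959), a neuropeptide of a stretch-sensing neuron, went from 55.9 ± 10.4 to 236 ± 36.0 CPM, and flp-16 (II:13235306-13237417) from 299 ± 33.2 to 576 ± 91.8 CPM. Of 20 ligand-gated channel genes 4 were higher and 2 lower, and lgc-30 (IV:924882-939736) went from 12.8 ± 2.21 to 254 ± 8.52 CPM. Of 67 UDP-glucuronosyltransferase genes 19 were tested. Of these, 3 were higher (15.8%) and none lower by edgeR, with 5 at an unadjusted p under 0.05. ugt-22 (IV:13639260-13644567) came to 15.1, 6.79, 4.995 and 6.05 CPM in HC125 and to 213 and 178 in the mutant, a log2 fold change of 4.86 ± 0.23. All mutant libraries of these 4 genes lay above all HC125 libraries. In these families too, members near 0 in HC125 could pass the filter on low counts through the mutant libraries.

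The hedgehog-related genes, a nematode family of secreted proteins, held changes of over 8-fold in each of their called members. Of 59 members 11 were tested, with a median of 2.77 CPM in HC125. Of these, 3 were higher and 1 lower (27.3% and 9.09%, against 7.76% and 9.2% of all tested genes). Members near 0 in HC125 could pass the filter on low counts through the mutant libraries, so these values do not stand for the whole family. wrt-5 (IV:4050006-4051639) came to 0, 0.849, 1.67 and 1.84 CPM in HC125 and to 310.2 and 255 in hrde-1;HC125, a log2 fold change of 7.51 ± 0.28 (edgeR adjusted p = 4.09e-12). grl-18 (V:5485631-5488866) came to 0, 0, 2.78 and 0.263 CPM in HC125 and to 79.3 and 73.1 in the mutant. Its fitted log2 fold change was 6.41, which became 8.38 if HC125 replicate 3 was left out and 5.69 if replicate 4 was. grd-16 (IV:2476686-2480316) came to 43.0, 54.3, 38.9 and 32.4 CPM in HC125 and had 1 count in the mutant libraries together, against 277 in HC125. That ratio was 369.6 with a 95% counting interval from 65.8 to 14650.

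**Figure D4:**
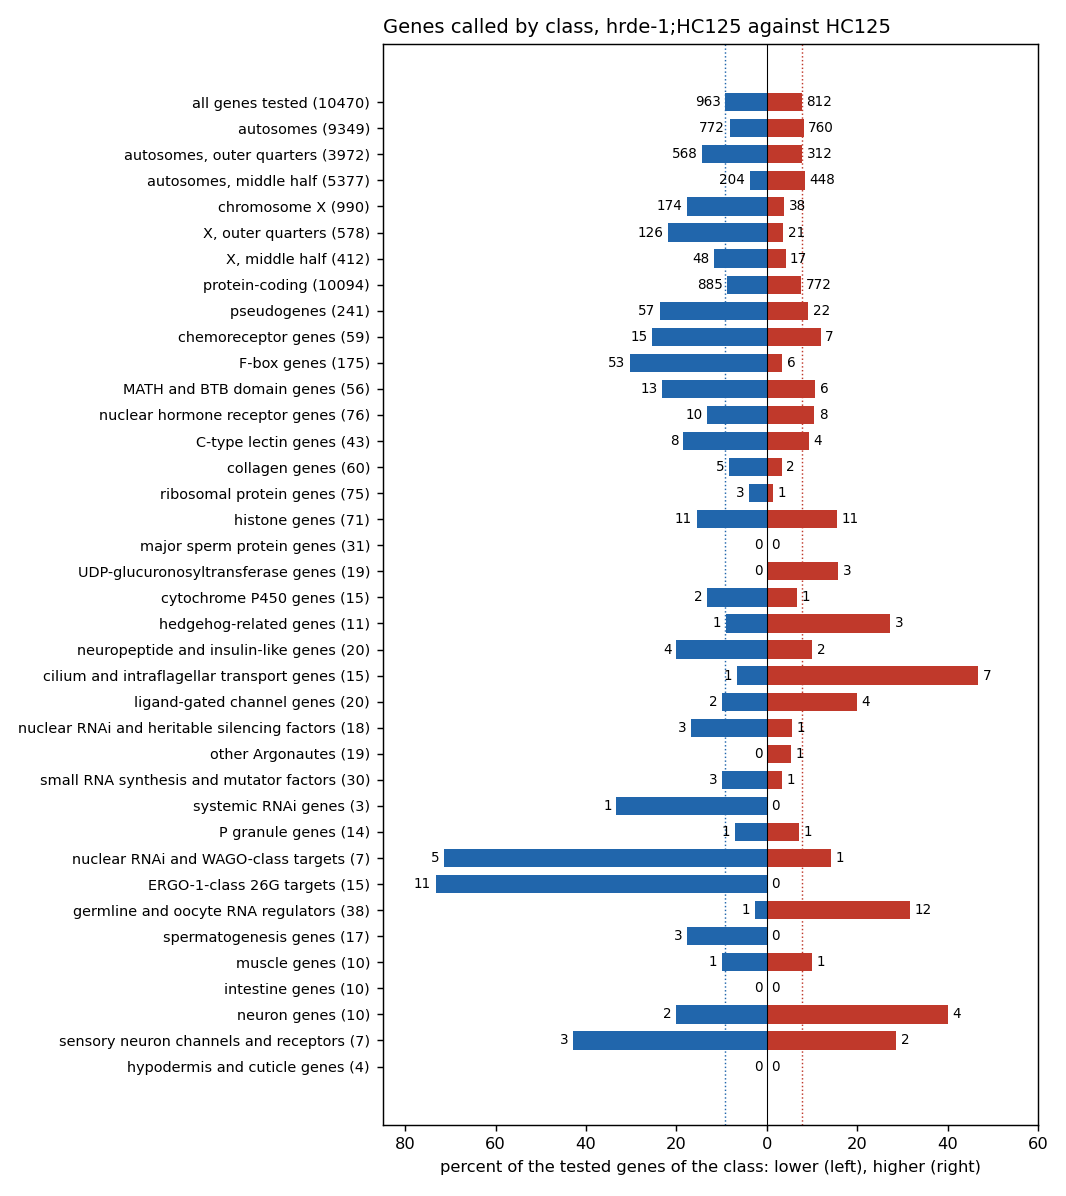
Percent of the tested genes of each class that were called lower (blue, left) and higher (red, right), with the number of genes beside each bar and the number tested in parentheses. The dotted lines mark 9.2% and 7.76%, the shares over all tested genes. ERGO-1-class targets and nuclear RNAi targets reach furthest to the left, and cilium genes and neuron genes furthest to the right. Among other classes, F-box genes, pseudogenes and chromosome X reach further to the left than the whole, and germline regulators further to the right.

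Lists of small RNA targets held mostly losses, but they were written with earlier results of these data known, so their direction is not independent evidence. Of 15 tested ERGO-1-class 26G-RNA targets, which are silenced by siRNAs primed by the Argonaute ERGO-1, 11 were lower and none higher by edgeR. Their median log2 fold change was -0.89, and 11 had an unadjusted p under 0.05. Without hrde-1;HC125 replicate 2 the lowered members numbered 6. C18D4.6 (V:17535586-17538375) came to 639, 724, 762 and 582 CPM in HC125 and to 92.4 and 38.8 in the mutant. Its log2 fold change of -3.35 ± 0.30 was -4.11 without hrde-1;HC125 replicate 1. K02E2.6 went from 2233.53 to 1238.05 CPM, and F55C9.5 (V:19290574-19293125) from 83.6 ± 9.84 to 26.2 ± 3.92 CPM.

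Of 7 targets of nuclear RNAi and of WAGO Argonautes, 5 were lower and 1 higher, and 3 were lower without hrde-1;HC125 replicate 2. sosi-1 (I:4460146-4462704) came to 735, 643, 639 and 598 CPM in HC125 and to 42.1 and 38.6 in hrde-1;HC125, a log2 fold change of -4.01 ± 0.16 (edgeR adjusted p = 6.7e-12). C38D9.2 (V:17567150-17571742) came to 1309.7, 1091, 1239 and 1119.8 CPM in HC125 and to 192 and 193 in the mutant. bath-45 fell by 0.56 on the log2 scale and was not called without hrde-1;HC125 replicate 2 (adjusted p = 0.12), and F15D4.5 and zip-2 are described above. eri-6, a helicase gene of the 26G pathway, had a log2 fold change of -0.33 (edgeR adjusted p = 0.0990). F37D6.3 (I:10486699-10487341) was the 1 higher member, from 2806 ± 172 to 4557 ± 71.7 CPM. The losses at these targets thus ranged from under 2-fold to over 8-fold.

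The genes of the small RNA pathways were also counted as targets. Of 18 nuclear RNAi and heritable silencing factors 3 were lower and 1 higher, a called share of 22.2% against 17.0% of all tested genes. Besides hrde-1, set-25, a histone H3 lysine 9 methyltransferase, had a log2 fold change of -0.46 (edgeR adjusted p = 0.0429), and hpl-1, a heterochromatin protein 1 homologue, -0.67 (adjusted p = 0.0137). nrde-2, the partner of nuclear Argonautes, had 0.48 (adjusted p = 0.0168). set-25 was not called without HC125 replicate 3 or 4 or either mutant library, with adjusted p from 0.104 to 0.22, nor with the array libraries fitted alone (0.0876) or without the filter on low counts (0.108). The calls of hpl-1 and nrde-2 ended without either mutant library (adjusted p = 0.088 and 0.12 for hpl-1, 0.15 and 0.11 for nrde-2). None of the 18 passed 8-fold.

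Of 19 other Argonaute genes 1 was called, and it was wago-1 (I:7235384-7238792), which came to 187, 211, 216 and 213 CPM in HC125 and to 339 and 349.7 in the mutant (log2 fold change 0.73 ± 0.12, edgeR adjusted p = 0.000311). Of 30 genes of small RNA synthesis and the mutator complexes 3 were lower and 1 higher, a called share of 13.3%. rrf-2 (I:12098664-12106112), an RNA-dependent RNA polymerase, went from 152 ± 33.6 to 69.97 ± 12.0 CPM. The polymerase gene rrf-1, the RNA helicase gene rde-12 and dcr-1, which encodes Dicer, changed by less than 2-fold, and the calls of rde-12 and dcr-1 ended without either mutant library (adjusted p = 0.18 and 0.064, and 0.15 and 0.25). rrf-1 was not called when any of HC125 replicates 1, 2 and 4 or of the mutant libraries was left out, with adjusted p from 0.0625 to 0.272, nor without the filter on low counts (adjusted p = 0.114). dcr-1 was also not called without HC125 replicate 1 (adjusted p = 0.077) or replicate 3 (adjusted p = 0.075). Of the 3 tested genes of systemic RNAi sid-1 alone was called, and sid-3 and rsd-3 had 14.6 and 23.1 CPM in the mutant against 10.9 and 15.2 in HC125.

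Of 38 tested germline and oocyte RNA regulators 12 were higher (31.6%, against 7.76% of all tested genes), 1 was lower and 25 were not called. None of the 38 passed the test of a change beyond 2-fold. Their median log2 fold change was 0.33. mex-5 (IV:13353723-13356104), a zinc finger protein of embryo polarity, came to 68.8, 95.9, 97.7 and 107 CPM in HC125 and to 154 and 162 in hrde-1;HC125 (log2 fold change 0.73 ± 0.14, edgeR adjusted p = 0.0013). puf-11 (IV:6421585-6423497), an RNA-binding protein of the Pumilio family, went from 458 ± 82.3 to 784 ± 48.0 CPM. The higher members also included puf-3, puf-5, puf-6, puf-7, mex-1, mex-6, oma-1, pos-1, nos-2 and gld-2. The lower member was fog-1 (log2 fold change -0.94), whose call ended without either mutant library (adjusted p = 0.236 and 0.203), without HC125 replicate 3 or 4 (adjusted p = 0.058 and 0.139) and with DESeq2 (adjusted p = 0.0765). The count of 12 was 7 without HC125 replicate 2, 6 and 2 without hrde-1;HC125 replicate 1 and replicate 2, 7 with scaling by library size alone and 3 after thinning.

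Of 14 P granule genes, whose products form the germ granules, 1 was higher and 1 lower. The called share of 14.3% was near the 17.0% of all tested genes. cgh-1 (III:7495320-7497832), an RNA helicase, went from 290.3 ± 46.9 to 482 ± 33.5 CPM and meg-4 (X:1682954-1686419) from 45.6 ± 15.6 to 17.5 ± 0.80 CPM. Of 17 tested spermatogenesis genes 3 were lower (17.6%, against 9.2% of all tested genes) and none higher by edgeR. In this list 4 had an unadjusted p under 0.05. spe-41 (III:3439011-3444210), a calcium channel of sperm, came to 60.2, 60.3, 55.5 and 42.9 CPM in HC125 and to 8.72 and 5.93 in the mutant. fer-1 (I:8623012-8631202), a ferlin of sperm vesicle fusion, came to 81.7, 71.3, 44.96 and 37.9 CPM in HC125 and to 6.87 and 4.04 in the mutant. Both groups stood apart in both genes, with log2 fold changes of -2.82 ± 0.25 and -3.26 ± 0.33. The third was spe-15, at 27.1 and 13.2 CPM, which was not called without hrde-1;HC125 replicate 2 (adjusted p = 0.153) or after thinning (adjusted p = 0.802).

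Few of the listed genes of muscle, intestine and hypodermis could be tested, and their counts are not set apart from the 17.0% called over all tested genes. Of 10 tested muscle genes 1 was higher and 1 lower. The higher one was unc-54 (I:14855901-14863482), a muscle myosin, whose HC125 libraries held 968, 1031, 843 and 944 CPM. The mutant libraries held 2705 and 1249.6 CPM. The mutant libraries differed by over 2-fold, the log2 fold change of 1.06 was 0.41 without replicate 1 of the mutant (edgeR adjusted p = 0.32), and the call also ended without HC125 replicate 1 (adjusted p = 0.054). unc-54 had 26.9 CPM in N2, 23.9 at F6 and 10.1 at F21. lev-11, a tropomyosin gene, had a log2 fold change of -1.07 that was not called without either mutant library (adjusted p = 0.065 and 0.054). None of 10 intestine genes was called by edgeR, and 0 of them had an unadjusted p under 0.05. None of 4 hypodermis and cuticle genes was called, with 1 at an unadjusted p under 0.05. The summed level of the 14 listed intestine genes was 1138 to 2191 CPM in HC125 and 1156 to 1523 CPM in the mutant.

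Some called genes lay side by side. Tested genes were ordered along each chromosome, and 3 or more in a row called in 1 direction were counted as a run. There were 45 runs of lower genes with 181 genes and 23 runs of higher genes with 71 genes. Genes of a run can share reads where they overlap or are copies. Of the called genes 104 overlapped another called gene, 76 of them on the opposite strand, and of the 55 overlapping pairs 44 moved in the same direction and 11 in opposite directions. No source used here says whether the counts are stranded, so reads of such partners cannot be told apart.

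The longest run held 27 lower genes on chromosome V (V:2345676-2564645). It consisted of a duplicated segment, and the 27 genes had 18 distinct sets of counts, since copies were given the same or nearly the same reads. Its members are best read together with the other groups. clec-209, a C-type lectin gene, came to 271, 157, 668 and 534 CPM in HC125 and to 14.9 and 11.05 in hrde-1;HC125, and to 11.09 and 10.1 CPM in N2. mct-2, named for monocarboxylate transport, came to 163, 204, 367 and 379 CPM in HC125, to 34.4 and 45.3 in the mutant, and to 19.97 and 41.5 in N2. srd-71, a chemoreceptor gene, came to 92.5, 143, 99.4 and 116 CPM in HC125, to 4.69 and 7.28 in the mutant, and to 6.66 and 4.49 in N2.

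N2, which has the wild type hrde-1, thus lay with the mutant at these genes, and the non-array lines lay with HC125, at 228.7 CPM at F6 and 223.5 at F21 for clec-209. HC125 replicates 1 and 2 were also below replicates 3 and 4 at several of them, most of all at srd-73, with 6.45 and 5.94 CPM against 42.2 and 42.1 CPM. srd-73 had 2 counts in the mutant, and its call ended without either mutant library (adjusted p = 0.17 and 0.12). Calls in the run also ended without replicate 1 of the mutant at F15E11.10, C01B4.8, C13B7.6 and F56A4.4 (adjusted p = 0.064, 0.068, 0.059 and 0.12), and without replicate 2 at irld-35, gst-10, F56A4.11 and Y19D10A.10 (adjusted p = 0.11, 0.15, 0.23 and 0.173). F56A4.4 also lost its call without replicate 2 (adjusted p = 0.0533), as did F56A4.11 and Y19D10A.10 without HC125 replicate 4 (adjusted p = 0.088 and 0.061). Y19D10A.4 differed from the rest of the run, with 302 and 248 CPM in N2 against 176, 162, 238 and 187 in HC125 and 100.1 and 81.4 in the mutant. Whether the copy number or sequence of the segment differs between the strains cannot be told from counts. Without the 27 genes, the outer parts of the autosomes had 541 of 3945 genes lower.

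**Figure D5:**
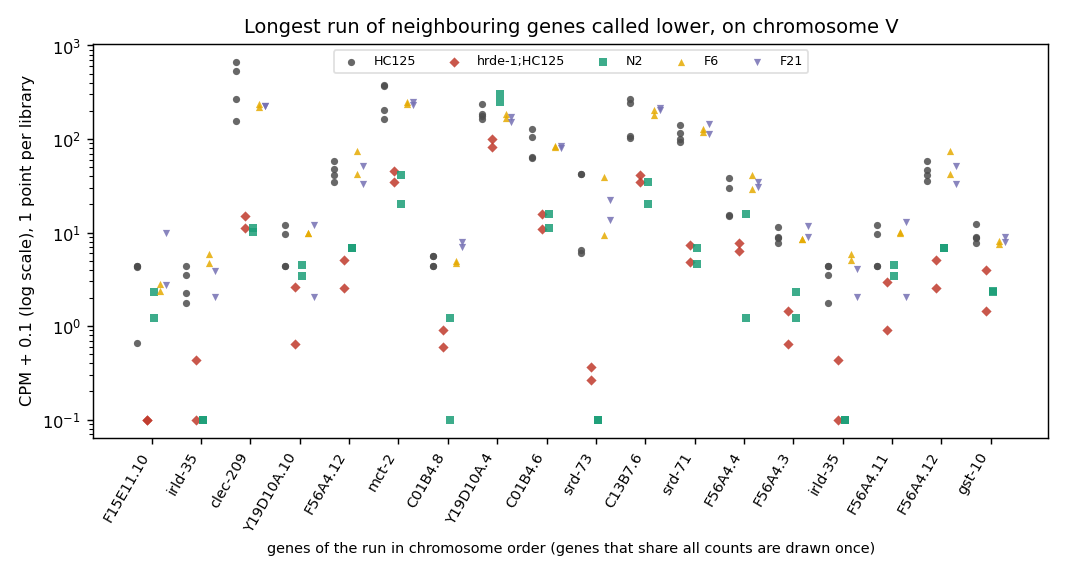
CPM plus 0.1 on a log axis, with 1 point per library, for the genes of the run on chromosome V in their order, with copies that share all counts drawn once. At most genes the hrde-1;HC125 libraries (red diamonds) and N2 (green squares) lie low, and HC125 (dark circles), F6 and F21 lie high. At Y19D10A.4 the N2 libraries are the highest.

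The next runs were shorter and held different genes. A run of 7 lower genes on chromosome III (III:365949-431749) went from pll-1, a phospholipase C-like gene, to cec-8, a chromodomain gene, with log2 fold changes from -0.52 to -3.59. pll-1 came to 1275, 1010.2, 944 and 962 CPM in HC125 and to 439 and 428 in the mutant. In this run K10F12.7, K10F12.6 and Y55B1BL.1 were not called without replicate 2 of the mutant (adjusted p = 0.12, 0.245 and 0.12), K10F12.6 also not without replicate 1 (adjusted p = 0.0504), and stim-1, a calcium sensor gene, lost its call without any of 4 single libraries, with adjusted p up to 0.27. A run of 6 lower genes on X (X:226651-240781) consisted of AC8.4, AC8.3 and AC8.7 with their copies, and AC8.3 went from 1759 ± 197 to 1016 ± 104 CPM. AC8.4 was not called without replicate 2 of the mutant (adjusted p = 0.107). Another 6 on X (X:148124-179394) went from Y73B3A.11 to T08D2.4. Y73B3A.11 went from 217 ± 39.6 to 33.2 ± 3.09 CPM, while T08D2.2, T08D2.5 and tmed-12 lost their calls without replicate 1 of the mutant (adjusted p = 0.0505, 0.0501 and 0.137), the latter pair also without replicate 2 (adjusted p = 0.0616 and 0.0874).

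The longest runs of higher genes held 4 genes each, and the one on chromosome V is given here because of its values. At ZK228.1, ZK228.10, ZK228.3 and ZK228.4 (V:18444418-18465426) the log2 fold changes were 4.28, 7.64, 7.47 and 7.07. ZK228.4 came to 6.45, 5.09, 2.78 and 6.31 CPM in HC125 and to 854 and 547 in hrde-1;HC125. ZK228.10 and ZK228.3 had 2 and 4 counts in the HC125 libraries together and 664 and 1109 in the mutant, so their fitted values rest on few HC125 counts. The other run of 4, Y53F4B.16 to Y53F4B.19 on chromosome II (II:15052083-15079475), had log2 fold changes of 1.48, 1.16, 1.01 and 3.40. Without replicate 2 of the mutant Y53F4B.16, Y53F4B.17 and Y53F4B.18 were not called (adjusted p = 0.078, 0.192 and 0.196), and without replicate 1 neither were Y53F4B.17 and Y53F4B.18 (adjusted p = 0.076 and 0.139). Y53F4B.18 was also not called without HC125 replicate 1 or replicate 4 (adjusted p = 0.094 and 0.065).

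The spread within HC125 was also measured. Between HC125 replicates 1 and 2 and replicates 3 and 4 the median absolute log2 difference was 0.331 over the called genes, and between hrde-1;HC125 and HC125 it was 1.42. Called genes were chosen for a difference beyond this spread, so these values are a description only. Over all tested genes both medians were 0.346. Without HC125 replicates 1 and 2 together, 1931 genes were called, of which 1583 were among the 1775 in the same direction.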

How the data were processed

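The deposited table holds raw counts of reads per gene. Its name gives the read length as 21 to 26 nt. Bowtie2 and HTSeq were used, per the submitters' processing notes. The sources used here give no versions, genome build, annotation, strand setting or handling of reads that match several places. Names, biotypes and coordinates were taken by gene ID from the Ensembl annotation of WBcel235, which held 20194 of the 20541 IDs.

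One model was fitted to 12 libraries in 5 groups (7 residual degrees of freedom) with edgeR 4.0.16 in R 4.3.3, using filterByExpr (minimum count 10, minimum total 15), TMM scaling and a two-sided quasi-likelihood F test in its robust form. Genes were called at a Benjamini-Hochberg adjusted p under 0.05 over all 10470 tested. Changes beyond 2-fold were tested with glmTreat. CPM is per 1e+06 counts, TMM-scaled. Values are mean ± SD, and changes carry the SE. Whether replicates came from separate cultures is not stated, so p-values measure the spread between these libraries, which may be technical. Reads amplified by PCR and lacking molecular identifiers are not independent, so intervals (95%, exact) and floors (3 counts over a group) cover counting error only. The 2 libraries of HC125 described as 5'-dependent are not analysed here.

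The members, lists and tests were chosen with earlier results of these data known. Named genes were hrde-1, sid-1, the 6 largest gains and losses in CPM, the called genes with the smallest adjusted p of each biotype, family and list, the called genes with most counts in each size class, and the 4 longest runs. Other genes were named after their values were seen, among them those with 0 counts in a group, further list members and both runs of 4. Lists were described by counts and medians, with no test. The fit was tested on simulated data. Alternatives were RLE scaling, library size alone, no and a stricter filter (10 CPM in 2 libraries), DESeq2 1.42.0, the 6 libraries alone, a replicate block, thinning to 451389 counts, identical genes once, and leaving out libraries.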

Additional observations from a re-analysis of the deposited data

Results flagged for a closer look

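Among 135 named genes and 17 shares of counts, 13 genes had 1 HC125 library far from the other 3. Chance flags about 1 in 20 groups of 4. HC125 replicate 1 stood above the rest at 8 of them: 12.9 CPM at WBGene00015370, 15.05 at bath-38, 10.75 at clec-157, 68.82 at meg-4, 3062 at F37D6.3, 15.05 at rab-3, 34.41 at Y55B1BL.1 and 1215 at AC8.7. It is the shallowest library, where 3 counts come to 6.45 CPM. HC125 replicate 2 stood below the rest at col-38 with 55.18 CPM and above them at tax-4 with 1.698 CPM. HC125 replicate 3 stood above the rest at grl-18 with 2.775 CPM and below them at F15E11.10 with 0.555 CPM. HC125 replicate 4 stood above the rest at lgc-50 with 2.63 CPM, where the others had 0. At bath-38 the call ended without hrde-1;HC125 replicate 1 (edgeR adjusted p = 0.2), without replicate 2 (adjusted p = 0.069) and without HC125 replicate 4 (adjusted p = 0.055). At lgc-50 the log2 fold change of 3.74 was 8.28 without HC125 replicate 4. clec-157 and col-38 lost their calls without either mutant library (adjusted p = 0.139 and 0.0736 for clec-157, 0.0848 and 0.0786 for col-38). The part of depth in these values was not tested.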

How the results depend on the processing

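The 1775 calls were 1790 with RLE scaling, 1839 with library size alone, 2030 without a filter, 1675 with the stricter one, 1666 with DESeq2, 1574 with the 6 libraries alone, 1756 with identical genes once, and 1065 to 1779 without single libraries. Of 148 named genes, 96 kept their call under every alternative that tested them and 0 changed direction. Both mutant libraries are the deepest, and thinning to 451389 counts left 6879 genes to test. It gave 1021 calls (460 higher, 561 lower), 189 higher and 230 lower beyond 2-fold, 16 higher and 85 lower on X, 236 higher and 134 lower in central and 201 higher and 330 lower in outer autosomal parts. It gave 14 higher and 34 lower pseudogenes, 27 lower F-box genes, 8 lower chemoreceptor genes, and 3 higher germline regulators. Higher germline regulators numbered 7 with library size alone. Higher histone genes numbered 6 with library size alone, 24 without a filter, 6 in the 6 libraries alone and 4 after thinning, and lower ones 20 without HC125 replicates 1 and 2. The cause of these moves was not tested, apart from the fewer reads and genes of the thinned table.

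Without single libraries the ranges were 487 to 771 higher and 575 to 1013 lower calls, 139 to 163 higher and 134 to 155 lower over 8-fold, 205 to 301 higher and 249 to 364 lower beyond 2-fold, 18 to 40 higher and 113 to 185 lower on X. They were 260 to 418 higher and 93 to 218 lower in central and 195 to 297 higher and 359 to 586 lower in outer autosomal parts, 12 to 24 higher and 37 to 59 lower pseudogenes, 31 to 52 lower F-box genes, 9 to 17 lower chemoreceptor genes, 6 to 7 higher cilium genes, 2 to 13 higher germline regulators, 0 to 23 higher and 8 to 15 lower histone genes, 6 to 11 lower ERGO-1-class targets and 3 to 5 lower nuclear RNAi targets.

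Groups share replicate numbers, and same-numbered libraries deviated together at r = 0.201 for number 1 and -0.254 for number 2. The largest value was 0.337, between hrde-1;HC125 replicate 2 and HC125 replicate 4. With 2 mutant libraries the deviations mirror each other, so every value has its opposite. These values therefore cannot decide whether libraries were paired. Replicates 3 and 4 exist only in HC125, so the replicate block sets the mutant against HC125 replicates 1 and 2 alone. That fit called 2114 genes, 1427 of them shared, with 321 lower genes in central autosomal parts and 28 higher histone genes.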
